A study of Mus musculus with 4 samples.

Results

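A set of 9 genes of the Gq signalling cascade was followed through laser-captured mouse striatum: the G protein alpha subunits Gnaq and Gna11, the phospholipases C beta Plcb1, Plcb3 and Plcb4, the IP3 receptors Itpr1, Itpr2 and Itpr3, and the protein kinase C gene Prkcb. They were taken by symbol from the deposited table, which lists 25259 genes in all. The mice were 8 weeks old, of the C57BL/6 strain, and either homozygous for a humanized Foxp2 allele (Foxp2hum/hum) or wild-type. That allele is a knock-in which makes the mouse Foxp2 protein carry amino acids of the human one, in every cell that uses the gene. RNA was sequenced from 12 libraries of Foxp2hum/hum dorsomedial striatum (DMS), 12 of Foxp2hum/hum dorsolateral striatum (DLS), 11 of wild-type DMS and 11 of wild-type DLS. Which mouse a library came from is not labelled, so p-values measure the spread between libraries, and any pairing of both regions within a mouse was not modelled.

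Gq alpha subunits are switched on by receptors such as the group I metabotropic glutamate receptors and the M1 muscarinic receptor, and they activate phospholipase C beta. That enzyme splits a membrane phosphoinositide into IP3, which opens calcium channels of the endoplasmic reticulum called IP3 receptors, and diacylglycerol, which recruits protein kinase C. In medium spiny neurons, the output cells of the striatum, this route also supplies the diacylglycerol from which the endocannabinoid 2-arachidonoylglycerol is made.

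Of the 9 genes, Plcb1, Plcb4 and Itpr2 had lower values in DMS than in DLS in both genotypes. The value of Itpr2 was made up mostly of reads at a copy of the calmodulin gene Calm2 inside one of its introns, and without those reads the regional call was lost. Plcb1 was still called lower in DMS when the values of overlapping genes were subtracted, and Plcb4 overlaps no gene of the table. With markers of the ventricle wall as covariates neither passed the test. The ependymal marker among them separated the regions by itself, so that fit cannot tell region and marker apart. No gene of the 9 was called between Foxp2hum/hum and wild-type mice.

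The sequence that carries the Itpr2 result is the pseudogene Gm15720, which lies on the minus strand at chr6:146411848-146412129 of mm9, in an intron of Itpr2 (chr6:146056821-146450745, minus strand). Its first 276 bases are shown 5′ to 3′ (chr6:146411854-146412129) above bases 231 to 506 of the Calm2 transcript in GENCODE M1, which fall inside the coding sequence at 141 to 590. Calm2 encodes calmodulin, the calcium sensor, and lies on chromosome 17. The stretches were 98.2% identical, and capitals mark the 5 bases at which they differ.
Gm15720: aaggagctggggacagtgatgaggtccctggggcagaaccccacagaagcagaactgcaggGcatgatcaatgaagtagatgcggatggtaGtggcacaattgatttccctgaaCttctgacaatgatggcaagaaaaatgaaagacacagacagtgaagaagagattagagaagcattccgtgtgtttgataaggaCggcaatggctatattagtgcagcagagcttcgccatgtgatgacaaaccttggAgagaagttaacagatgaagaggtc
Calm2: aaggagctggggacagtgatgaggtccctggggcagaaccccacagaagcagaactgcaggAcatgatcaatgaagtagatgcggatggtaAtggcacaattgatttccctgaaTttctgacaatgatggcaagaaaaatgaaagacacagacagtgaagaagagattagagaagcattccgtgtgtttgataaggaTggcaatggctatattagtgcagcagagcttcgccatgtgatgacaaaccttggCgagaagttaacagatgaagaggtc

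The deposited values count reads per gene divided by a library size factor. Reads were counted over whole gene spans, introns included, and on both strands: in 294 of 294 cases in which a gene of at least 500 mean value lies in an intron of a longer gene, the inner gene was not above its host in any library, and 205 of those 294 lie on the opposite strand. A member's value can therefore hold reads of other genes within its span. Such genes made up at least 10% of the mean value for 3 members, Gnaq, Plcb1 and Itpr2. Gna11, Plcb3, Plcb4, Itpr1 and Itpr3 overlap no gene of the table, and the 5 small genes within Prkcb each held at most 1.13% of its value.

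The libraries held 16.79 to 41.01 M reads in genes (M for mega). Striatal identity was checked on marker genes: Ppp1r1b and Penk, both highly expressed in medium spiny neurons, were at 21733 or more and 16618 or more in every library. Overlapping genes were not subtracted from markers, and 1700003D09Rik on the opposite strand stood at 78.8% of the mean Ppp1r1b value. DMS libraries also held more RNA of the ventricle wall. All 6 ependymal and all 6 neuroblast markers were called higher in DMS in both genotypes, and 3 of 5 tested choroid plexus markers. Among them Dlx1as stood at 146.3% of the mean value of the neuroblast marker Dlx1. Lrrc61 stood at 140.1% of that of the ependymal marker Rarres2. The summed ependymal markers ran from 612.0 to 1857 in Foxp2hum/hum DMS, against 244 to 453 in Foxp2hum/hum DLS, and from 438 to 1997 in wild-type DMS, against 232 to 313 in wild-type DLS. Of 13 medium spiny neuron markers, 8 were lower and 1 higher in DMS in each genotype. No oligodendrocyte marker was lower and 2 of 8 were higher in wild-type mice, and no microglial or endothelial marker was called. In bulk tissue fewer cells of a type and less RNA per cell cannot be told apart, and the part of these other cells in the regional results below was not tested. The covariate fit given with Plcb4 cannot separate their RNA from region.

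**Figure D1:**
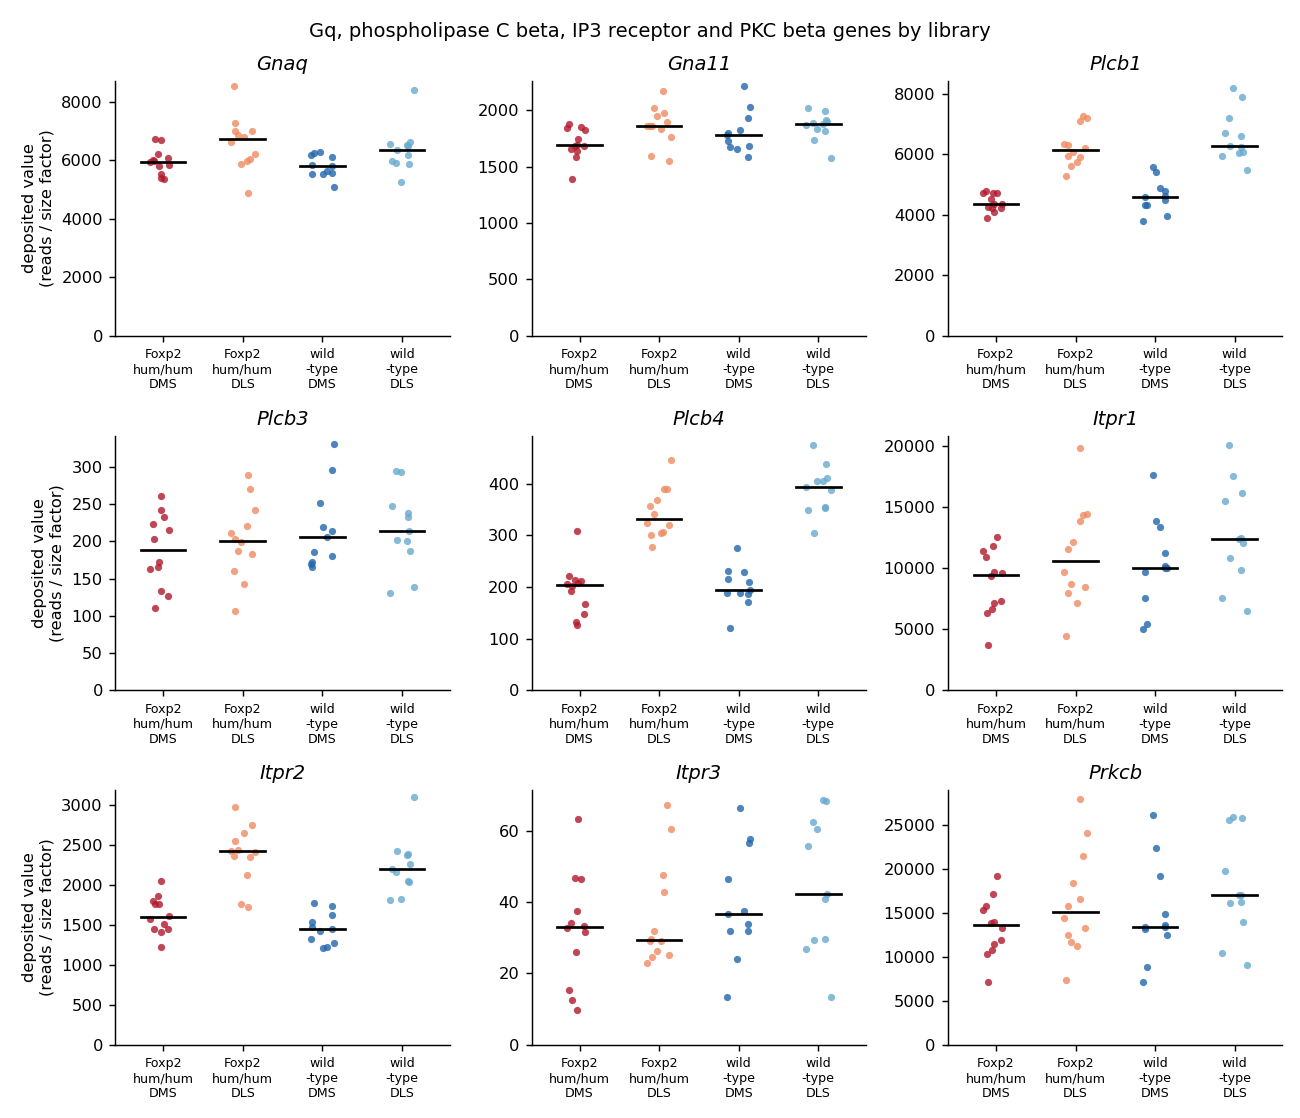
Deposited values (reads divided by the library size factor, linear axes from 0) of the 9 genes, with 1 point per library, 12 libraries in each Foxp2hum/hum group and 11 in each wild-type group, and a black line at the group median. Plcb1, Plcb4 and Itpr2 sit lower in DMS than in DLS in both genotypes, while Itpr1, Itpr3, Plcb3 and Prkcb spread widely within every group.

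The G protein alpha subunits differed little between regions. Gna11, whose protein acts much like that of Gnaq, had a lowest, median and highest value of 1392, 1688 and 1879 in Foxp2hum/hum DMS, against 1554, 1865 and 2171 in Foxp2hum/hum DLS. In wild-type mice the values were 1589.9, 1779.8 and 2218 in DMS, against 1579, 1879.5 and 2017 in DLS. The groups overlapped over most of their range in each genotype. The difference on the log2(value + 1) scale was -0.13 in Foxp2hum/hum (95% confidence interval -0.24 to -0.01, limma adjusted p = 0.134) and -0.04 in wild-type mice (-0.16 to 0.08, adjusted p = 0.712). Gna11 was also the steadiest member among libraries of 1 group, with a residual SD of 0.12 (log2), against a median of 0.31 over 15263 genes with a mean of at least 50.

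Gnaq, the alpha subunit that gives Gq its name, had 5375, 5961 and 6719 in Foxp2hum/hum DMS, against 4868, 6717 and 8533 in Foxp2hum/hum DLS. Wild-type DMS libraries ran from 5078 over 5818 to 6289, against 5275, 6365 and 8417 in wild-type DLS. The groups overlapped, with the highest DLS libraries above all DMS libraries of the same genotype. The difference was -0.13 in Foxp2hum/hum (-0.27 to -0.002, limma adjusted p = 0.168) and -0.13 in wild-type mice (-0.27 to 0.01, adjusted p = 0.206).

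Most of the Gnaq value was made up of reads at a pair of pseudogenes in its introns. Gm5558 (chr19:16238802-16239295, opposite strand) held 45.7% of the mean Gnaq value, and its 495 aligned bases were 96.6% identical to Ppia, the gene of cyclophilin A. Gm10819 (chr19:16341551-16342111, opposite strand) held 25.3%, and its 564 aligned bases were 99.1% identical to the coding sequence of Pebp1. Together with a smaller one, genes in the introns made up 51.7% to 83.9% of the Gnaq value of a library. The remainder had a median of 1678 in Foxp2hum/hum DMS, against 1626 in Foxp2hum/hum DLS, and of 1742 in wild-type DMS, against 1858 in wild-type DLS. The regional difference of that remainder was -0.01 in Foxp2hum/hum (-0.20 to 0.18) and 0.003 in wild-type mice (-0.20 to 0.20), with limma adjusted p of 0.964 and 0.988, so the small negative values of the deposited row were not seen without the copies. Whether the reads at the copies were transcribed there or came from Ppia and Pebp1 cannot be told apart from these values.

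Among the phospholipases, Plcb1 and Plcb4 were lower in DMS and Plcb3 was not called. Counted over all 9 members, 3 were called lower in DMS in Foxp2hum/hum mice and the same 3 in wild-type mice, with none higher. Of all 19561 genes tested, 8.82% were called lower in Foxp2hum/hum mice, 8.72% in wild-type mice and 6.67% in both, and 9.33% and 8.54% were called higher. The median difference over the 9 members was -0.24 in Foxp2hum/hum and -0.27 in wild-type mice, against 0.02 and 0.01 over all genes tested. The members were chosen with earlier results of these data known, so these counts and medians are descriptions.

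Plcb1 encodes the phospholipase C beta most abundant in forebrain neurons. Its lowest, median and highest values were 3885, 4353 and 4792 in Foxp2hum/hum DMS, against 5288, 6137 and 7246 in Foxp2hum/hum DLS, and these groups did not overlap. In wild-type mice they were 3791, 4589 and 5579 in DMS, against 5472, 6274 and 8193 in DLS, and here the highest DMS library lay just above the lowest DLS library. On the log2 scale DMS differed from DLS by -0.50 in Foxp2hum/hum (-0.63 to -0.37, limma adjusted p = 4.89e-08) and -0.52 in wild-type mice (-0.65 to -0.38, adjusted p = 7.67e-08), or 0.707 and 0.700 times the DLS value.

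There are 3 other genes in the Plcb1 span (chr2:134611895-135300994, plus strand), of which 4930545L23Rik stood at 0.382% of its mean value. Gm14036, a pseudogene at chr2:134629685-134630164 that was 99.4% identical over 480 bases to the ribosomal protein gene Rpl29, held 28.3% of the mean Plcb1 value and was not called between regions (log2 0.10 in Foxp2hum/hum and 0.14 in wild-type mice, limma adjusted p = 0.625 and 0.486). Without the genes in its introns Plcb1 had a median of 2633 in Foxp2hum/hum DMS, against 4479.9 in Foxp2hum/hum DLS, and of 2885 in wild-type DMS, against 4928 in wild-type DLS. Its log2 difference was then -0.75 in Foxp2hum/hum (-0.99 to -0.51, limma adjusted p = 2.70e-06) and -0.76 in wild-type mice (-1.01 to -0.51, adjusted p = 5.30e-06).

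The third is 9630028H03Rik, an antisense transcript at chr2:135151183-135409320 that runs across the 3′ part of Plcb1 and beyond its end, with 5724 bases of Plcb1 exon within its span. Without strand, reads of the gene and of its antisense partner cannot be told apart, and the antisense row stood at 58.6% of the mean Plcb1 value. That row was itself lower in DMS, by -0.78 in Foxp2hum/hum and -0.80 in wild-type mice on the log2 scale (limma adjusted p = 5.38e-07 and 8.01e-07). Taking the whole row away removes exon reads of Plcb1 too. What was left had medians of 479 in Foxp2hum/hum DMS, against 702 in Foxp2hum/hum DLS, and of 504 in wild-type DMS, against 763 in wild-type DLS. The log2 difference of this rest was -0.63 in Foxp2hum/hum (-0.99 to -0.27, limma adjusted p = 0.00842) and -0.61 in wild-type mice (-0.99 to -0.23, adjusted p = 0.0167), so Plcb1 stayed lower in DMS under both subtractions.

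Plcb4, another brain phospholipase C beta, lies downstream of Plcb1 on the same chromosome (chr2:135484747-135840329, plus strand) and shares its span with no gene of the table. It had 126, 203 and 309 in Foxp2hum/hum DMS, against 278, 332 and 446 in Foxp2hum/hum DLS. These overlapped through the highest DMS library. In wild-type mice it had 120, 194 and 274 in DMS, against 305, 393 and 475 in DLS, with no overlap. Groups that do not overlap, with DMS the lower, were found for 1.15% of all genes tested in Foxp2hum/hum and for 1.02% in wild-type mice. By limma, Plcb4 differed by -0.85 in Foxp2hum/hum (-1.07 to -0.62, limma adjusted p = 4.28e-08) and -0.97 in wild-type mice (-1.20 to -0.74, adjusted p = 5.10e-09), or 0.556 and 0.511 times the DLS value.

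With Ttr and Ccdc153, a choroid plexus and an ependymal marker, as covariates, Plcb4 had a log2 difference of -0.57 in Foxp2hum/hum and -0.66 in wild-type mice, and Plcb1 of -0.20 and -0.15, none of them past the threshold (limma adjusted p = 0.271, 0.247, 0.475 and 0.639). The deposited Itpr2 row was not called in that fit either, at -0.69 in Foxp2hum/hum and -0.75 in wild-type mice (limma adjusted p = 0.103 and 0.114), differences no smaller than without the covariates. In that fit 1.77% of all genes were called in Foxp2hum/hum mice and 1.31% in wild-type mice, against 18.1% and 17.3% without the covariates. Ccdc153 itself separated the regions, at 89.2 to 326 in Foxp2hum/hum DMS, against 0 to 27.9 in Foxp2hum/hum DLS, and 40.6 to 308 in wild-type DMS, against 0 to 2.15 in wild-type DLS. Region and this marker cannot be told apart in these libraries.

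Plcb3, a phospholipase C beta found in many tissues, was low. It ran from 111 over 188 to 261 in Foxp2hum/hum DMS, against 106, 201 and 289.99 in Foxp2hum/hum DLS, and from 165 over 205 to 331 in wild-type DMS, against 131, 214 and 294 in wild-type DLS. All 4 groups covered about the same range. Its difference (log2) was -0.10 in Foxp2hum/hum (-0.41 to 0.20, limma adjusted p = 0.708) and 0.01 in wild-type mice (-0.30 to 0.33, adjusted p = 0.971).

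Since Plcb1 and Plcb4 were lower together, their promoters are shown, from 250 bases before to 50 after the first annotated start, 5′ to 3′ on the plus strand of chromosome 2. They come from RefSeq on GRCm38.p6, a later build than that of the table, at chr2:134785914-134786213 for Plcb1 and chr2:135659297-135659596 for Plcb4. Capitals mark matches to GGGCGG, the GC box, on either strand, with overlapping matches run together.
Plcb1: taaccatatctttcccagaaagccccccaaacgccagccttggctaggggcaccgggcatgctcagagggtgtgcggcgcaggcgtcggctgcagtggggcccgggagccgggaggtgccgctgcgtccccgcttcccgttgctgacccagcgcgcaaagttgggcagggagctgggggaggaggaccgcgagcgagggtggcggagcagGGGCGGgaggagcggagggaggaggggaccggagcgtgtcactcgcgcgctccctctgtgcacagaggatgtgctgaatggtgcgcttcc
Plcb4: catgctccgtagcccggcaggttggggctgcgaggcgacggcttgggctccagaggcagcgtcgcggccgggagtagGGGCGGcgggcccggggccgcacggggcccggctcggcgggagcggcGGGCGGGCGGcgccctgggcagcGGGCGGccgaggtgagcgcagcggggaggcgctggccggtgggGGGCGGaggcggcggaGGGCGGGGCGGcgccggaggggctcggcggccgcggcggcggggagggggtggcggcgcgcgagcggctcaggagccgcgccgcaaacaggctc

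The Plcb1 window held 1 GC box and the Plcb4 window shown 7, and 35.7% of all 32851 promoters of the same length hold at least 1. Plcb4 has another window, which begins at chr2:135764588 and held 0. Neither printed window held TATAAA, the cyclic AMP element TGACGTCA, or the forkhead-type cores TATTTGT and TATTTAT. These were found in 13.6%, 1.79%, 3.63% and 5.60% of all promoters. Of the 9 members 8 had an entry, and none of their 9 windows held any of these 4 motifs. A motif missing from 300 bases says nothing about binding elsewhere.

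The genes whose values followed Plcb1 and Plcb4 most closely over the 46 libraries were mostly ones that also differ between regions. For Plcb1 these were the splicing factor gene Rbfox1 (Pearson r = 0.964), the protein kinase C gene Prkce (0.956) and the lipoprotein lipase gene Lpl (0.956). Within groups, after the 4 group means were taken off, r stayed at 0.863, 0.867 and 0.822. For Plcb4 they were Garnl3 (0.899), Pik3r4 (0.892) and the cannabinoid receptor gene Cnr1 (0.885), and within groups r was 0.504, 0.499 and 0.387. Plcb1 and Plcb4 had r = 0.398 with each other within groups. Genes that differ between the regions in the same direction follow each other over all libraries. All values of a library were also divided by the same size factor. The correlations are descriptions.

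**Figure D2:**
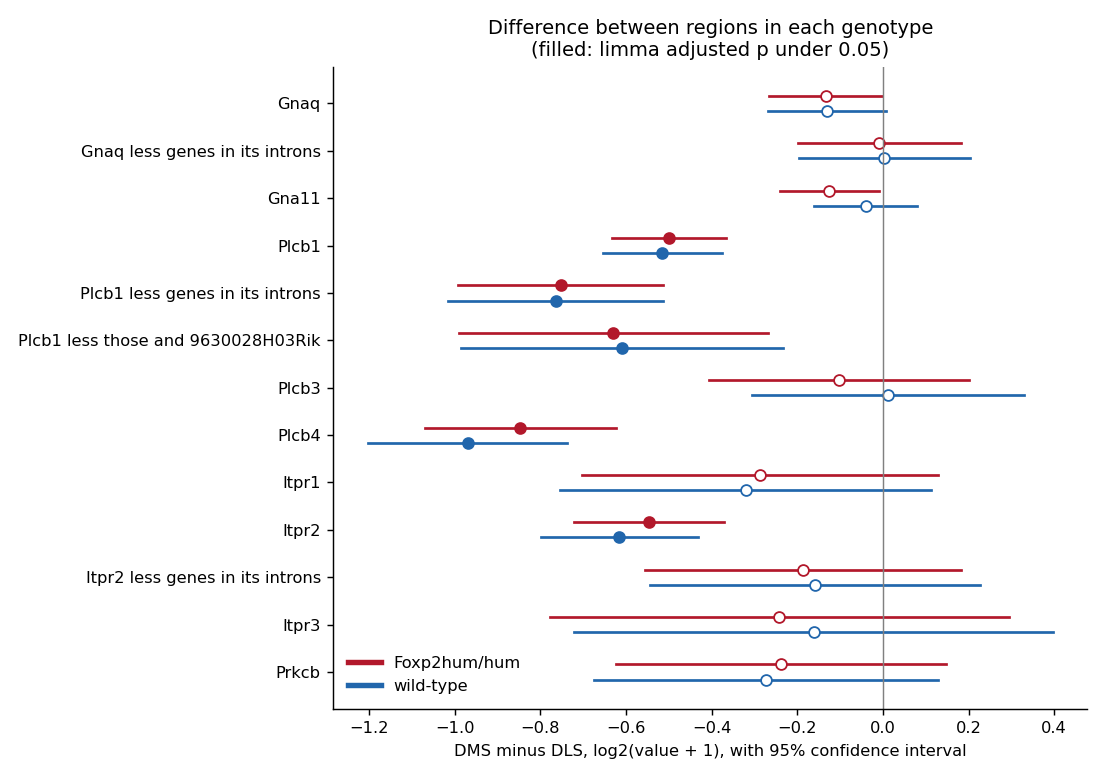
Difference between DMS and DLS in log2(value + 1) with its 95% confidence interval, for each member as deposited and after values of overlapping genes were subtracted, in Foxp2hum/hum (red, upper) and wild-type mice (blue, lower). Filled points have a limma adjusted p under 0.05: Plcb1 stays filled after both subtractions, Plcb4 needs none, and Itpr2 is filled only as deposited.

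Itpr2 encodes an IP3 receptor that is prominent in astrocytes and in many non-neuronal cells. As deposited, it had 1228, 1596 and 2053 in Foxp2hum/hum DMS, against 1728, 2421 and 2979 in Foxp2hum/hum DLS. In wild-type mice it had 1209.99, 1445 and 1771 in DMS, against 1818, 2206 and 3097 in DLS, with no overlap between the wild-type groups. The log2 difference was -0.55 in Foxp2hum/hum (-0.72 to -0.37, limma adjusted p = 3.02e-06) and -0.62 in wild-type mice (-0.80 to -0.43, adjusted p = 7.43e-07).

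Gm15720, the Calm2 copy printed above, held 88.6% of the mean Itpr2 value and between 75.3% and 95.1% in single libraries. Its values were 1007, 1409 and 1829.8 in Foxp2hum/hum DMS, against 1333, 2204 and 2821 in Foxp2hum/hum DLS, and 959.6, 1297 and 1578 in wild-type DMS, against 1518, 1927 and 2946 in wild-type DLS. Calm2 had medians of 24101 in Foxp2hum/hum DMS, against 38243 in Foxp2hum/hum DLS, and of 22867 in wild-type DMS, against 36318 in wild-type DLS. The copy stood at 4.45% to 6.90% of Calm2 in every library.

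Calm2 was itself lower in DMS in both genotypes. Its log2 difference was -0.59 in Foxp2hum/hum and -0.63 in wild-type mice (limma adjusted p = 1.12e-04 and 8.43e-05), beside -0.58 and -0.68 for Gm15720 (adjusted p = 4.57e-05 and 5.96e-06). Of 12024 genes compared, Calm2 was also the one whose values followed the deposited Itpr2 value most closely, with r = 0.910 over the 46 libraries and 0.776 within groups. Tmeff1 (0.888) and Ndfip2 (0.887) came next. Whether the reads at the copy were transcribed there or came from Calm2 cannot be told apart from the table.

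Without Gm15720, Itpr2 had a lowest, median and highest value of 122, 176 and 285 in Foxp2hum/hum DMS, against 120, 203 and 438 in Foxp2hum/hum DLS. In wild-type mice it had 136, 207 and 338 in DMS, against 146, 242 and 398 in DLS. The groups overlapped almost throughout. The log2 difference was -0.19 in Foxp2hum/hum (-0.55 to 0.18, limma adjusted p = 0.551) and -0.16 in wild-type mice (-0.54 to 0.23, adjusted p = 0.638). The regional call on the deposited Itpr2 row was thus lost in the rest of the gene, whose intervals reached down to -0.55 and -0.54.

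**Figure D3:**
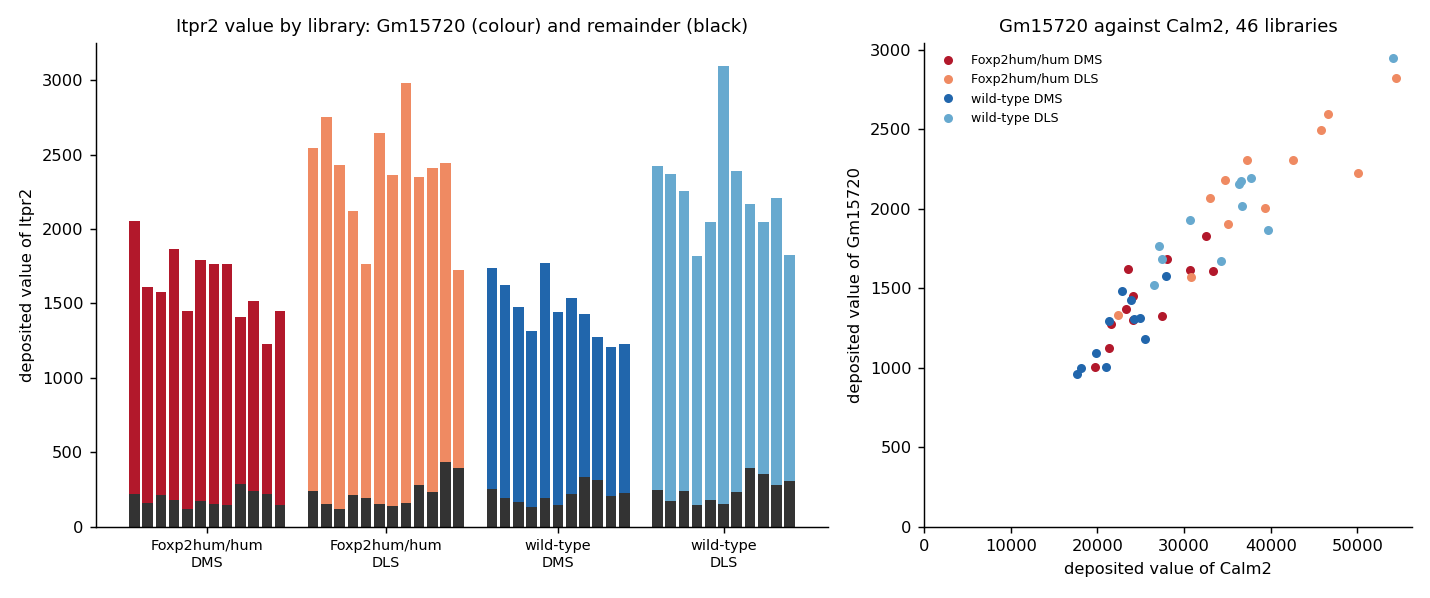
Left, the deposited Itpr2 value of each library (bars from 0, grouped by genotype and region) split into Gm15720 (coloured) and the remainder (black). Right, Gm15720 against Calm2 in the same 46 libraries on linear axes from 0. The coloured part makes up 75.3% to 95.1% of each bar, and Gm15720 rises along with Calm2, at 4.45% to 6.90% of its value.

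Itpr1, the main IP3 receptor of neurons, was high and highly variable. It had 3737, 9490.2 and 12572 in Foxp2hum/hum DMS, against 4414, 10628 and 19853 in Foxp2hum/hum DLS, and 5041, 10016 and 17642 in wild-type DMS, against 6473, 12403 and 20077 in wild-type DLS. Every group spanned the medians of all the others. Itpr1 differed by -0.29 in Foxp2hum/hum (-0.70 to 0.13, limma adjusted p = 0.382) and -0.32 in wild-type mice (-0.75 to 0.11, adjusted p = 0.343). Its residual SD within groups was 0.53 (log2), larger than that of 92.4% of the 15263 genes compared.

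Itpr3, the IP3 receptor known best from epithelia and taste cells, was close to the lower end of what was tested. Its values ran from 9.76 over 32.9 to 63.2 in Foxp2hum/hum DMS, against 22.8, 29.4 and 67.2 in Foxp2hum/hum DLS, and from 13.2 over 36.6 to 66.3 in wild-type DMS, against 13.4, 42.2 and 68.4 in wild-type DLS. Itpr3 differed by -0.24 in Foxp2hum/hum (-0.78 to 0.29, limma adjusted p = 0.599) and -0.16 in wild-type mice (-0.72 to 0.40, adjusted p = 0.755).

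Prkcb, a classical protein kinase C that needs both calcium and diacylglycerol, had 7155, 13582 and 19233 in Foxp2hum/hum DMS, against 7319, 15103 and 27963 in Foxp2hum/hum DLS. In wild-type mice it had 7139, 13428 and 26166 in DMS, against 9104, 17087 and 25874 in DLS. The groups overlapped almost wholly. The log2 difference was -0.24 in Foxp2hum/hum (-0.62 to 0.15, limma adjusted p = 0.444) and -0.27 in wild-type mice (-0.68 to 0.13, adjusted p = 0.387).

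Prkcb and Itpr1 varied together. Within groups their log2 values had r = 0.961 over the 46 libraries, and between 0.948 and 0.987 in the single groups. Plcb1 varied with them, with r = 0.870 with Prkcb and 0.768 with Itpr1, and 0.947 and 0.885 once the genes in its introns were subtracted. That remainder still held the antisense row 9630028H03Rik and had r = 0.982 with it. The antisense row itself had r = 0.909 with Prkcb and 0.848 with Itpr1. Prkcb and Itpr1 ran opposite to Ppia and Rpl29, which were looked at because copies of them lie in Gnaq and Plcb1. With Ppia, r within groups was -0.919 for Itpr1 and -0.897 for Prkcb, and with Rpl29 it was -0.845 and -0.866. For Plcb1 these values were -0.726 with Ppia and -0.798 with Rpl29. With the share of reads from mitochondrial genes it was -0.652 for Itpr1 and -0.55 for Prkcb. That share averaged 22.4% ± 3.84 in Foxp2hum/hum DMS, against 24.8% ± 2.87 in Foxp2hum/hum DLS, and 20.2% ± 4.16 in wild-type DMS, against 22.7% ± 3.61 in wild-type DLS (SD, n = 12, 12, 11 and 11).

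Fits that take up variation between libraries gave other calls. With the mitochondrial share as a covariate, Itpr1 was called lower in DMS in both genotypes (log2 -0.51 in Foxp2hum/hum and -0.55 in wild-type mice, limma adjusted p = 0.0169 and 0.0128). Prkcb was called lower in wild-type mice (-0.46, adjusted p = 0.0463). In that fit 23.3% of all genes were called in either direction in Foxp2hum/hum and 24.3% in wild-type mice. With 1 surrogate variable, a factor estimated from all genes, 7 of the 9 members were called lower in Foxp2hum/hum and 6 in wild-type mice. Itpr1 was among them in both genotypes, at -0.25 in wild-type mice (adjusted p = 2.28e-04). Of all genes 29.95% and 28.8% were then called in either direction. Gnaq and Itpr2 entered both fits as deposited, with the reads at their copies. These fits were added after the spread had been seen, and what lies behind the shared variation was not tested.

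**Figure D4:**
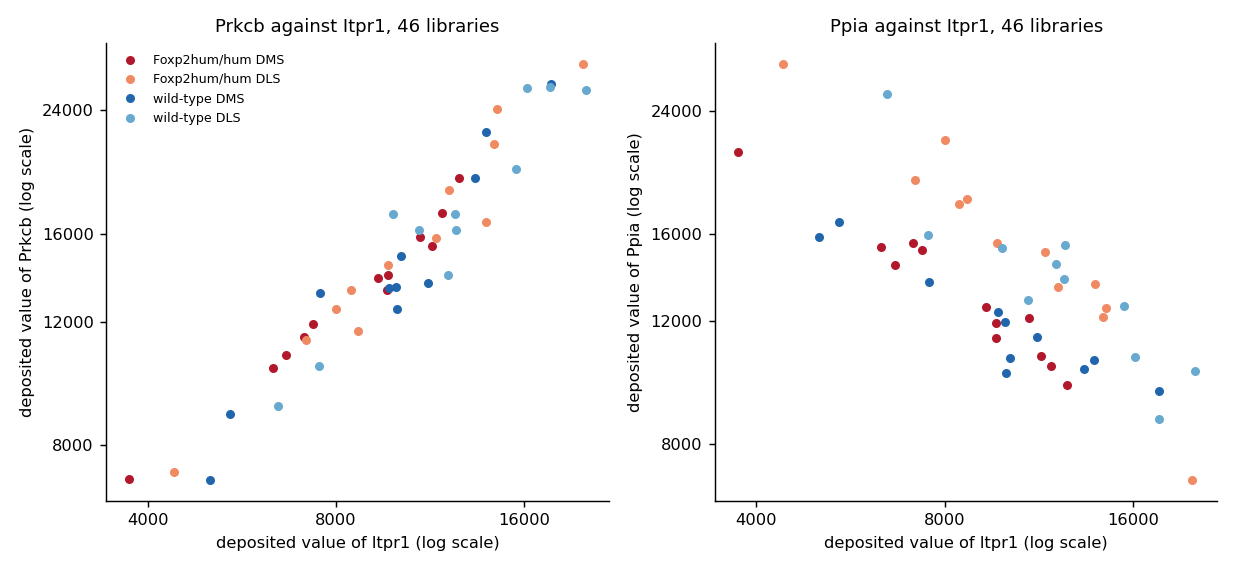
Deposited values of Prkcb (left) and of Ppia (right) against Itpr1 in the 46 libraries, on log axes, coloured by genotype and region. Prkcb climbs with Itpr1 (r = 0.961 within groups) and Ppia declines (r = -0.919), and libraries of all 4 groups lie along both trends.

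The order of the members by level depends on the length that their reads are divided by. Per kilobase of whole span, as deposited, Gna11 came first at 109.8 and Prkcb next at 45.09. Levels are set side by side here per length of exon and without the genes in their introns. On that scale, and as means over the 46 libraries, Prkcb stood at 3193 reads per kilobase of exon, Itpr1 at 1029.8, Gna11 at 441, Gnaq at 288, Plcb3 at 48.5, Plcb4 at 31.4, Itpr2 at 16.2 and Itpr3 at 4.25. The ranges over libraries overlapped between neighbours in this order except between Gnaq (214 to 417) and Plcb3 (25.03 to 78.3) and between Itpr2 (8.92 to 32.5) and Itpr3 (1.09 to 7.61). Plcb1 has no fixed place in the order. It stood at 448 reads per kilobase with the reads of its antisense partner still included, and taking the antisense row away also removes reads over most of its exon length. Reads from introns are part of these counts, and their share was not measured.

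No member was called between genotypes. In Foxp2hum/hum minus wild-type, 0 of 9 members were called in DMS, 0 in DLS and 0 over both regions by limma, 0 had an unadjusted p under 0.05, and edgeR and DESeq2 also called 0. Over all 19561 genes limma called 0 in each of these comparisons, or 0% as background, with 3.58% at an unadjusted p under 0.05 in DMS, 4.31% in DLS and 8.58% over both regions. edgeR called 0 genes in DLS and DESeq2 called 3. The log2 differences of the members ran from -0.34 to 0.15 in DMS and from -0.26 to 0.08 in DLS.

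For the steady members the intervals of the deposited rows were narrow. Gna11 differed between Foxp2hum/hum and wild-type mice by -0.08 in DMS (-0.20 to 0.04) and by 0.002 in DLS (-0.12 to 0.12), and Plcb1 by -0.06 in DMS (-0.20 to 0.08) and by -0.08 in DLS (-0.21 to 0.06). Without the genes in its introns and 9630028H03Rik, Plcb1 had wider intervals. It then differed by -0.25 in DMS (-0.62 to 0.12) and by -0.23 in DLS (-0.60 to 0.14). Plcb4 differed by -0.06 in DMS (-0.29 to 0.17) and by -0.18 in DLS (-0.41 to 0.05). For Itpr1 the intervals were wide, with -0.20 in DMS (-0.63 to 0.22) and -0.24 in DLS (-0.66 to 0.19). The smallest p of a member over both regions was that of the deposited Itpr2 row, at 0.12 (-0.01 to 0.25, limma adjusted p = 0.575). Without Gm15720 this value was -0.18 (-0.45 to 0.08, adjusted p = 0.613).

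The regional difference itself was also compared between genotypes. The difference between Foxp2hum/hum and wild-type mice in their DMS minus DLS values was 0.02 for Plcb1 (-0.18 to 0.21) and 0.12 for Plcb4 (-0.20 to 0.45), with limma adjusted p of 0.9999 for both. None of the 9 members was called and none had an unadjusted p under 0.05, and of all genes 0 were called and 1.64% had an unadjusted p under 0.05.

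The rest of the pathway was read from 12 lists of 155 further genes, of which 150 are in the table and 143 were tested. In both genotypes 37 of the 143 were called lower in DMS (25.9%) and 15 higher (10.5%), against 6.67% and 6.36% of all genes tested. The median difference of the 143 genes was -0.10 in Foxp2hum/hum and -0.08 in wild-type mice. None was called between genotypes. The lists hold many neuronal genes, and medium spiny neuron markers were lower in DMS as well. They were chosen with earlier results of these data known, so their shares are descriptions and no independent test.

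Of 21 tested receptors that couple to Gq, 4 were lower and 3 higher in DMS in both genotypes. The glutamate receptor Grm5 was not called (log2 0.005 in Foxp2hum/hum and -0.08 in wild-type mice), nor was the M1 muscarinic receptor Chrm1 (-0.18 and -0.15). The orphan receptor Gpr139 averaged 4.95 ± 4.37 in Foxp2hum/hum DMS, against 147 ± 74.4 in Foxp2hum/hum DLS, and 6.15 ± 5.71 in wild-type DMS, against 184 ± 109.6 in wild-type DLS (SD, n = 12, 12, 11 and 11, as for all means that follow; limma adjusted p = 2.13e-11 and 3.26e-11). The cholecystokinin receptor Cckbr (1.78 in Foxp2hum/hum and 1.98 in wild-type mice) and the ADP receptor P2ry1 (1.87 and 1.48) were higher in DMS.

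Among proteins that act on Gq or its receptors, Rgs4, which speeds up GTP hydrolysis by Gq and Gi and so shortens the signal, averaged 8054 ± 1317 in Foxp2hum/hum DMS, against 24271 ± 2008 in Foxp2hum/hum DLS, and 8071 ± 1280.3 in wild-type DMS, against 25191 ± 2888 in wild-type DLS. Its log2 differences were -1.60 and -1.65 (limma adjusted p = 5.50e-21 and 9.83e-21), and it was the 1 gene of 6 tested in its list that was lower in both genotypes, with 1 higher. The G beta subunit gene Gnb5 was lower by -0.18 and -0.21 (limma adjusted p = 0.0353 and 0.0194). In its list of 3 tested genes 1 was higher in both genotypes, the Gq family alpha subunit gene Gna14. It differed by 1.34 in Foxp2hum/hum and 1.24 in wild-type mice (limma adjusted p = 0.00376 and 0.0119). Its mean value was 11.97, close to the lower end of what was tested. The scaffold Homer1, which links Grm5 to IP3 receptors, was called lower in wild-type mice (-0.43, adjusted p = 0.00647) and had -0.30 in Foxp2hum/hum mice (adjusted p = 0.0567).

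On the lipid side, 5 of 19 phosphoinositide supply genes were lower in both genotypes and 1 was higher. The phosphatidylinositol transfer proteins Pitpnb (-0.47 in Foxp2hum/hum and -0.55 in wild-type mice) and Pitpnc1 (-0.48 and -0.57) and the lipid kinase Pi4k2a (-0.39 and -0.29) were lower, and Pitpnm2 (0.74 and 0.83) was higher. Of 11 other phospholipases C, Plch2 was lower (-0.87 and -0.94) and Plce1 higher (0.70 and 0.71). Of 15 genes of IP3 metabolism, 4 were lower and 0 higher. These were the inositol monophosphatase Impa1 (-0.32 and -0.33) and the phosphatases Inpp5a (-0.31 and -0.44), Inpp5j (-0.33 and -0.32) and Inpp4b (-0.49 and -0.54). The overlapping Nkx6-2 stood at 15.3% of the Inpp5a value and Pla2g3 at 39.9% of that of Inpp5j.

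Diacylglycerol genes included 4 of 11 that were lower in both genotypes and none higher. Dagla, the lipase that turns diacylglycerol into 2-arachidonoylglycerol, averaged 734 ± 163 in Foxp2hum/hum DMS, against 1494 ± 417 in Foxp2hum/hum DLS, and 869 ± 291 in wild-type DMS, against 1741 ± 492 in wild-type DLS. Its log2 differences were -1.01 and -1.03 (limma adjusted p = 1.50e-05 and 2.47e-05). The diacylglycerol kinases Dgkg (-0.49 and -0.46), Dgki (-0.55 and -0.76) and Dgkz (-0.19 and -0.21) were also lower, and within Dgki 1700111E14Rik stood at 16.03% and Gm10046 at 10.35% of its value. Among proteins with a diacylglycerol-binding C1 domain, 3 of 9 were lower and 1 higher, with the Ras and Rap activators Rasgrp1 at -0.53 and -0.56 and Rasgrp2 at -0.82 and -0.80. The chimaerins, which switch off Rac, were split, with Chn1 lower (-0.22 and -0.24) and Chn2 higher (0.37 and 0.33). Genes within their spans stood at 25.98% of the Rasgrp2 value (Gm14965), 66.4% and 11.3% of the Chn1 value (Gm13704 and Gm13706) and 62.4% and 41.4% of the Chn2 value (9130019P16Rik and Gm15526). Those of Chn2 together come to more than its own value, so the call on that row cannot be ascribed to Chn2.

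Of 10 other protein kinases C and D, 3 were lower and 2 higher. Prkce (-0.78 in Foxp2hum/hum and -0.86 in wild-type mice), Prkci (-0.78 and -0.72) and Prkcz (-0.36 and -0.35) were lower. Prkch was higher (log2 1.11 and 0.99). It averaged 1033 ± 73.3 in Foxp2hum/hum DMS, against 486 ± 95.9 in Foxp2hum/hum DLS, and 1002 ± 108.7 in wild-type DMS, against 504 ± 66.1 in wild-type DLS. The substrates of protein kinase C were split, with 2 of 9 lower and 3 higher. The calmodulin-binding Nrgn was lower by -1.93 and -1.91 (limma adjusted p = 1.52e-23 and 1.78e-22), and Marcks (0.98 and 0.93), Marcksl1 (1.35 and 1.35) and Gap43 (0.47 and 0.46) were higher.

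Among 26 IP3 receptor partners and genes of endoplasmic reticulum calcium, 9 were lower and 2 higher in both genotypes. The ryanodine receptor Ryr2 (log2 -1.07 in Foxp2hum/hum and -1.17 in wild-type mice) and the calcium pump Atp2a2 (-0.68 and -0.73) were lower, and the cation channel Trpc7 (1.30 and 1.54) was higher.

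**Figure D5:**
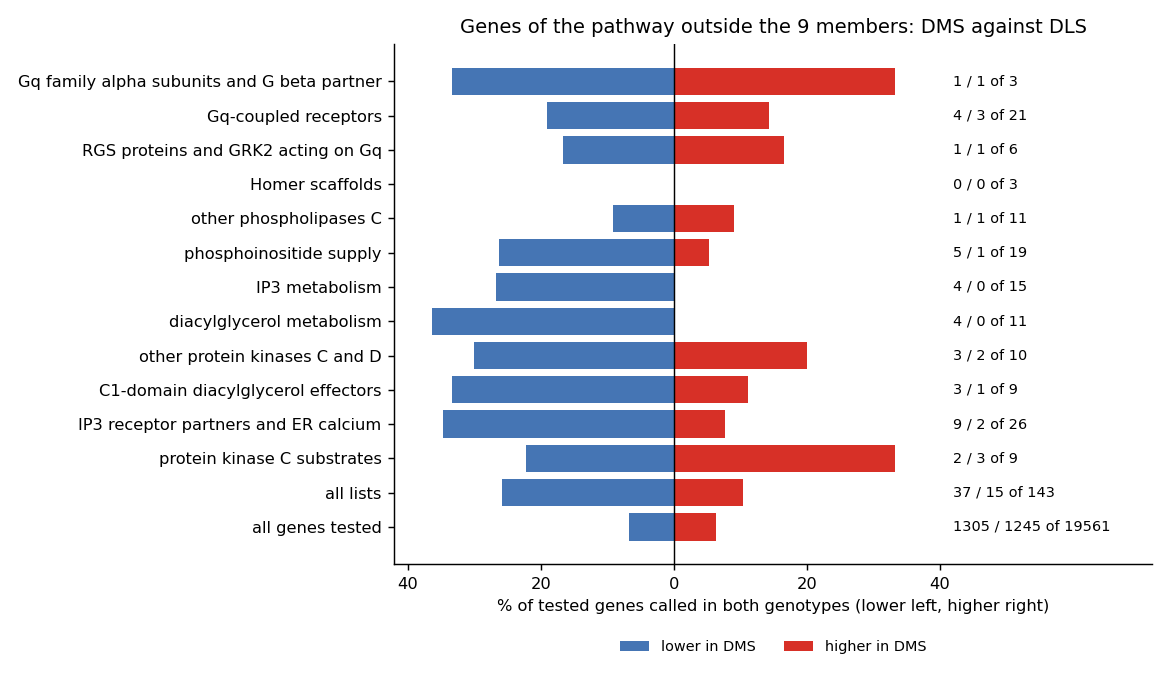
Share of tested genes in each of 12 pathway lists outside the 9 members, and of all genes tested, that were called in both genotypes as lower in DMS (bars to the left) or higher in DMS (bars to the right), with the counts lower / higher of tested beside them. Over all lists 37 of 143 were lower and 15 higher, against 6.67% and 6.36% of all genes. The lists were chosen with earlier results of these data known.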

How the data were processed

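RNA-seq was measured in 46 laser-captured striatal libraries. What the authors deposited is a signal scaled by library, 1 value per gene, with mm9, TopHat 1.4.1, bedtools and DESeq named per the submitters' processing notes. Within each library 100% of values came out as whole reads (tolerance 0.01) once multiplied by a constant, and these reads entered the count tests. Groups came from the table's header. R 4.3.3 and limma 3.58.1 fitted 4 group means to log2(value + 1) and tested differences (two-sided, 19561 genes with a mean of at least 10, Benjamini-Hochberg over all of them, threshold 0.05), checked on simulated data. edgeR 4.0.16, DESeq2 1.42.0 and sva 3.50.0 served as alternatives. Members were placed by GENCODE M1 (mm9), which held 25023 of the table's identifiers, and copies were matched with BLAST+ 2.17.0. Subtraction of overlapping genes and the mitochondrial and surrogate covariates were added after seeing the data. The members and lists were chosen with earlier results of these data known. Genes named beside the members are up to 4 per list with a mean of at least 50 that passed in both regional comparisons, taken by adjusted p, and fixed ones (among them Grm5, Chrm1, Rgs4, Homer1 and Dagla); some genes that the rule takes are not reported here. Gna14 is named although its mean lies below 50. The 3 most alike genes by Pearson r are named for each member called. The libraries were run on 3 flow cells, which the labels do not assign to libraries.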

Additional observations from a re-analysis of the deposited data

How the results depend on the processing

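No paired analysis was possible because the labels give no replicate number or animal that ties a DMS library to a DLS library. The count of 3 members lower in DMS was the same in both genotypes with other pseudocounts, filters, scalings, only the groups compared, edgeR and DESeq2. In those settings 14.6% to 19.5% of all genes were called in Foxp2hum/hum mice and 13.7% to 18.7% in wild-type mice. With array weights the member count was 4 in Foxp2hum/hum mice, where Gnaq was called (-0.13, adjusted p = 0.0481, 23.3% of all genes called). In wild-type mice it was 3 (23.4%). With overlapping genes subtracted it was 2 in each genotype (18.1% of all genes called in Foxp2hum/hum and 17.3% in wild-type mice). With each library left out it was 3 in wild-type mice and 3 to 4 in Foxp2hum/hum mice, where Gnaq was called without DLS library 94 (-0.17). With Ttr and Ccdc153 as covariates it was 0 in both genotypes (1.77% of all genes called in Foxp2hum/hum and 1.31% in wild-type mice). With the mitochondrial share it was 4 in Foxp2hum/hum (23.3%) and 5 in wild-type mice (24.3%). With 1 surrogate variable it was 7 in Foxp2hum/hum (29.95%) and 6 in wild-type mice (28.8%). These shares of all genes count calls in either direction. The count between genotypes was 0 in every setting, also with libraries left out. Member differences between genotypes ran from -0.35 to 0.16 in DMS and from -0.40 to 0.10 in DLS over 15 settings. With each library left out they ran from -0.48 to 0.19 in DMS and from -0.41 to 0.13 in DLS. Some of these differences between genotypes changed sign from setting to setting. Regional differences of members that were not called changed sign as follows. By quantile scaling Gna11 in wild-type mice was at 0.0235, Plcb3 in wild-type mice at -0.031 and Gnaq in Foxp2hum/hum mice at 0.0052. With array weights Plcb3 in wild-type mice was at -0.0678, and with the mitochondrial share at -0.1305. With Ttr and Ccdc153 the values in Foxp2hum/hum mice were 0.40 for Plcb3, 0.68 for Itpr1 and 0.71 for Prkcb, and in wild-type mice 0.0326 for Gna11, 0.85 for Itpr1 and 0.88 for Prkcb. Gnaq in wild-type mice was at 0.0033 after either subtraction. Plcb3 in wild-type mice ran from -0.0552 to 0.0608 with libraries left out. The causes were not tested.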
